A study of Rattus norvegicus with 3 samples.

Results

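The glutathione transferase genes described here are 10 rat genes: Gsta2 and Gsta4 of the alpha class, Gstm1 and Gstm2 of the mu class, Gstp1 of the pi class, Gstt1 and Gstt2 of the theta class, Gstk1 of the kappa class, and the membrane-bound enzymes Mgst1 and Mgst2. They were chosen by name, and a probe belonged to a gene when its accession was listed for that gene in RefSeq. All 10 genes were on the array, with 1 probe each and 1 spot for each probe, among 15168 genes matched to 18005 of 30367 probes. Transcript levels were read on 3 Agilent 1-colour arrays of neonatal rat ventricular cardiomyocytes, which are primary heart muscle cells from newborn rats. The control cells had received an empty vector, the HSD1 cells an expression vector for 11β-HSD1, and the HSD1+BVT cells that vector together with BVT.2733, an inhibitor of the enzyme. RNA of each group came from 1 pool of cells on 1 array, so there is no spread between cultures, no test was run, and every difference compares 2 arrays. The study asked how 11β-HSD1, the enzyme that regenerates active glucocorticoid inside cells, acts on cardiomyocyte hypertrophy. All groups carried a vector, and among the samples used here none was untransfected and none received the inhibitor without the enzyme's vector.

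Glutathione transferases join the tripeptide glutathione to reactive, electrophilic molecules, which are then exported from the cell. The soluble enzymes fall into classes by sequence, and the membrane-bound ones belong to a separate family, MAPEG, that also makes leukotrienes and prostaglandin E. In the heart they are known for clearing the aldehydes and peroxides of oxidised lipids, and many of their genes respond to the transcription factor NRF2 or to the aryl hydrocarbon receptor, AHR.

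Levels are given as the processed signal of the spot, or on the log2 scale relative to the percentile 75 of the array's signals, so that 0 means a signal equal to that percentile. A gene was called higher or lower at 2-fold or more where its probe was well above background on both arrays. The technical SD of a log2 ratio, from the 100 probes nearest in signal among 1390 that were printed 10 times, is given as the error of a ratio. It covers the reading of the spots and not the cells or pools. Levels of different probes are not compared with each other, since probes bind their targets unequally.

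Between 81.2% and 82.5% of spots were well above background on the 3 arrays, and none was saturated. The control and HSD1 arrays came from 1 scan and the HSD1+BVT array from another, so an effect of the scan and one of the inhibitor cannot be told apart. Hsd11b1, the gene whose vector was transfected, stood at 3.39, 3.86 and 3.76 on the log2 scale in control, HSD1 and HSD1+BVT, which is 1.39-fold above control with the vector and under the 2-fold threshold. All 9 cardiomyocyte markers, such as Tnnt2 and Myh6, and all 8 fibroblast markers, such as Col1a1 and Pdgfra, were well above background on every array. In pooled RNA of this kind, fewer cells of a type and less RNA per cell cannot be told apart. Over all genes the split of calls depended on the scaling: with the vector 159 genes were higher and 65 lower than in control, against 117 and 92 after quantile normalization, and with vector and inhibitor 345 were higher and 88 lower, against 194 and 155.

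Gsta2 differed most among the 10 genes, and was the only one called in any comparison. It encodes an alpha-class enzyme that is abundant in liver and reduces lipid hydroperoxides. The processed signal of its spot was 249.9 on the control array, with a software error of 25.1, then 85.6 with the vector, with an error of 9.06, and 442.6 with vector and inhibitor, with an error of 44.4. On the log2 scale the levels were -2.40, -3.77 and -1.81. The gene was thus lowest with the vector alone and highest when the inhibitor was added, with control between them. It was 2.59-fold lower in HSD1 than in control, at a log2 ratio of -1.37 (technical SD 0.079). In HSD1+BVT it was 3.90-fold higher than in HSD1, at 1.96 (technical SD 0.082), and 1.51-fold above control, at 0.59 (technical SD 0.077). Over 8 processing settings the second of these ratios lay between 1.41 and 1.96. The first reached -1.44 and was nearest to 0 under normexp, a model-based background correction, where it was only just past 2-fold. Both ratios hold the HSD1 array, and its single spot of Gsta2 decides them together. The raw brightness of the spots, before background was taken off, was 333.5, 159.0 and 526.0.

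Of 11600 genes well above background on all 3 arrays, 26 had a ratio to control with the vector as low as that of Gsta2 or lower, itself included. A ratio as high as its own with the inhibitor was found for 13, and Gsta2 alone was in both groups. Since both cuts are the ratios of Gsta2, it is in both groups by construction. At the 2-fold threshold, 15 genes were lower with the vector and higher with the inhibitor added, Gsta2 included. Genes near to Gsta2, by the distance between their pairs of log2 ratios, were sought among 5796 genes. These had a symbol other than a LOC or RGD number and a mean signal above the median of the 11600. Gsta2 itself falls below that cut, so genes as dim as Gsta2 were not compared. The 5 nearest were Ifi47, Ifit3, Pth2, Mtarc2 and Rsad2. Ifi47, a GTPase induced by interferon, had ratios of -1.21 with the vector and 2.26 with the inhibitor added, and Ifit3, another interferon-induced gene, had -1.51 and 1.57. These 5 genes lie at distances of 0.34 to 0.68, over 3 arrays only.

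Since Gsta2 is best known from liver, markers of hepatocytes were read beside it. Alb and Apoa1, which encode the plasma proteins albumin and apolipoprotein A-I, were not well above background on any of the 3 arrays. Ttr, which encodes the thyroid hormone carrier transthyretin, was measured on all of them, at -1.52, -0.83 and -0.33, as were Serpina1, at -5.17, -5.41 and -4.87, and Fgb, at -3.36, -2.98 and -3.37. Serpina1 thus had the same order over the arrays as Gsta2, with ratios of -0.24 and 0.54, and Ttr and Fgb did not. Serpina1 was dim, with processed signals of 36.7, 27.5 and 53.0. Gstt1, of similar signal, had a technical SD of 0.26 for its ratio with the vector, so the sign of -0.24 is uncertain. As a multiple of the array's percentile 75, the 5 hepatocyte markers summed to 0.49, 0.74 and 0.93 in control, HSD1 and HSD1+BVT, most of it Ttr, and the part of such cells in the Gsta2 values was not tested.

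Gsta4, the alpha-class enzyme known for conjugating 4-hydroxynonenal, a toxic aldehyde of lipid peroxidation, was nearly level. Its processed signals were 5113, 4771 and 6605 in control, HSD1 and HSD1+BVT, or 1.95, 2.03 and 2.09 on the log2 scale. The ratio was 0.08 with the vector (technical SD 0.057), 0.06 with the inhibitor added (technical SD 0.058) and 0.14 between HSD1+BVT and control (technical SD 0.051). Its range over the 3 arrays, 0.14, was the narrowest of the 10 genes, beside 1.96 for Gsta2. Gsta4 and Gsta2 lie close together on rat chromosome 8, with Gsta5 as the only gene listed between them. The 2 genes therefore share a neighbourhood but not a pattern across these arrays.

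**Figure D1:**
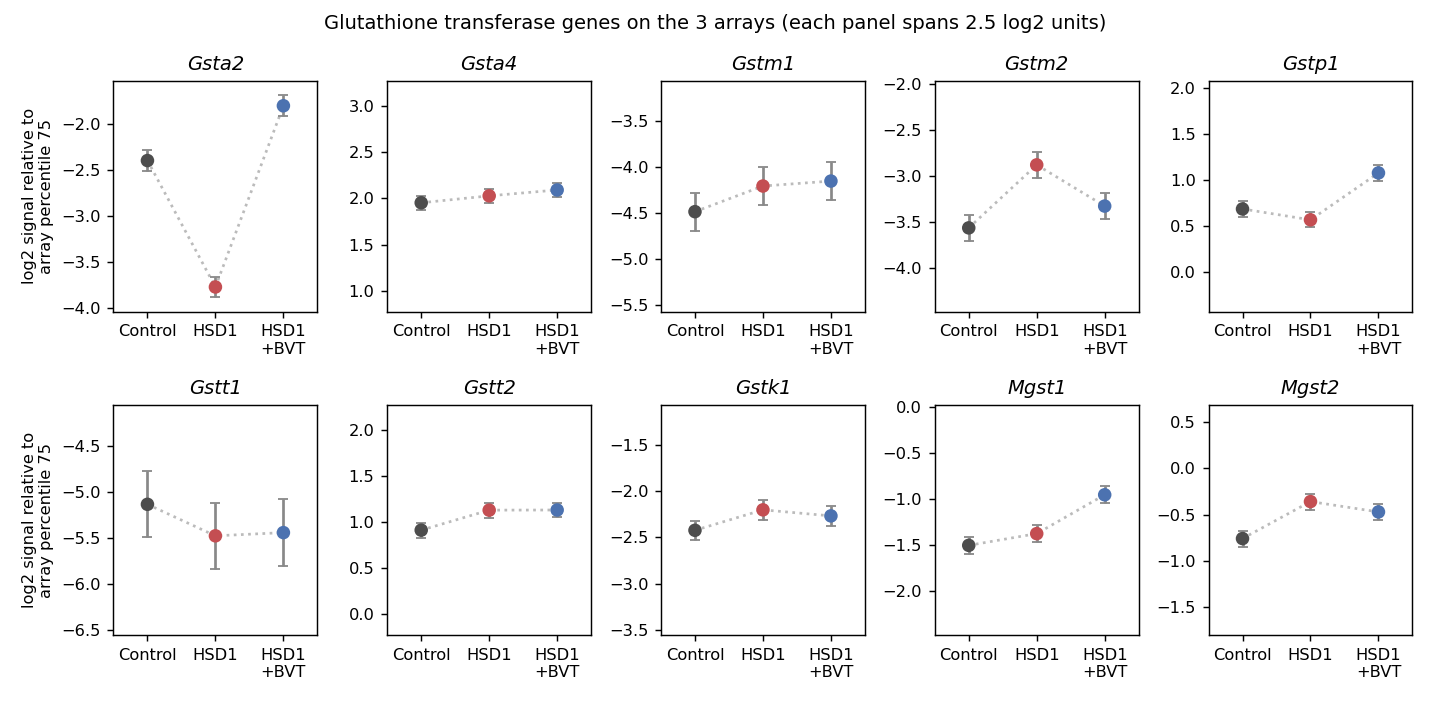
Each panel shows 1 gene on the 3 arrays, as log2 signal relative to the array's percentile 75 on the vertical axis, with bars of 2 SD of a single spot each way and dotted lines that only guide the eye. Every panel spans the same height, and Gsta2 alone spans most of it, from -3.77 in HSD1 to -1.81 in HSD1+BVT.

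The other alpha-class genes were read to see whether they followed Gsta2. Gsta1 stood at 3.23, 3.54 and 3.84 in control, HSD1 and HSD1+BVT, Gsta3 at 1.52, 1.80 and 2.23, and Gsta5 at -1.22, -1.17 and -0.37. None of these was lower with the vector than in control. Gsta6 stood at -1.15, -0.62 and -0.96, with ratios of 0.53 with the vector and -0.34 with the inhibitor added. Both had the opposite sign to those of Gsta2, and the second was below 0 in all 8 settings. With the vector, 5 of the 6 alpha-class genes had ratios above 0 and Gsta2 alone lay below, in all 8 settings. Of all genes 59.2% lay above 0 in that comparison. Between HSD1+BVT and control all 6 lay above 0 in all 8 settings, and the values reported run from 0.14 for Gsta4 to 0.85 for Gsta5. Their median was 0.60, or 0.51 after quantile normalization, 0.52 after cyclic loess and 0.46 under normexp. The median of 11724 genes was 0.05 and 58.2% of them lay above 0. A further probe of Gsta3 gave 1.01 in that comparison, beside 0.71 for its brighter probe. Gsta2 and Gsta5 are close paralogs that lie next to each other, and older names overlap: RefSeq lists Gsta2 as a former name of Gsta5. Probe sequences were not used here, and how far a probe also reads a paralog was not tested.

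The start regions of 3 genes are shown to set the gene that differed most, Gsta2, beside its level neighbour Gsta4 and beside Gstp1, which was higher with the inhibitor. Sequences are from RefSeq on build GRCr8, from 250 bases before to 50 after the transcript's start, on the strand of the gene. Of the 10 genes, 7 were in the table, and Gstt1, Gstt2 and Mgst2 were not. Capitals mark matches on either strand to TGACNNNGC, the core of the antioxidant response element that NRF2 binds, to GCGTG, the core of the xenobiotic response element that AHR binds, to AGAACA, a glucocorticoid receptor half-site, to TATAAA or to the AP-1 site TGACTCA. The windows are chr8:88077043-88077342 on the minus strand for Gsta2, chr8:87947015-87947314 on the plus strand for Gsta4 and chr1:210769656-210769955 on the minus strand for Gstp1.
Gsta2: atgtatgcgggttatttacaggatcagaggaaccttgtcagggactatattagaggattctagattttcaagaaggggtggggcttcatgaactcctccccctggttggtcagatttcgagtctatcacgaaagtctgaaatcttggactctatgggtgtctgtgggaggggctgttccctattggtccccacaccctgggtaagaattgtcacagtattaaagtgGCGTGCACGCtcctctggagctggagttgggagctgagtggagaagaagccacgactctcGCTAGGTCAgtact
Gsta4: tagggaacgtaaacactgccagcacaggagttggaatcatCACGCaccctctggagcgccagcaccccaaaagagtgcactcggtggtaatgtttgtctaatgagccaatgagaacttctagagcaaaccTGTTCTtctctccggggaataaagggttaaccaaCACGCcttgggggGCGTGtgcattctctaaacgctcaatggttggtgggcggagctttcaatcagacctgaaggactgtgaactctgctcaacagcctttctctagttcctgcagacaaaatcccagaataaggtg
Gstp1: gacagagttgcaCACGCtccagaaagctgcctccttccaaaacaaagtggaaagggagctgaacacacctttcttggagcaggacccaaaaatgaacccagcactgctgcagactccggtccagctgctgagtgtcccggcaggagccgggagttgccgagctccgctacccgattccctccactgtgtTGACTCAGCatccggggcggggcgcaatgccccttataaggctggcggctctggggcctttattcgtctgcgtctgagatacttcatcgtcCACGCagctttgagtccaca

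In the Gsta2 window, a pair of GCGTG matches on opposite strands begins 24 and 19 bases before the start, and TGACNNNGC matches once on the opposite strand, from base 37 after it. The Gsta4 window holds GCGTG matches that begin 210, 86 and 73 bases before the start and a half-site at 120. In the Gstp1 window, TGACNNNGC matches 61 bases before the start, where it overlaps the AP-1 site TGACTCA, and GCGTG matches 238 bases before and from base 31 after it. Among the 7 windows, TGACNNNGC was found in 2 and GCGTG in 3, and 12.1% and 29.7% of 33469 windows of the same length hold them. The half-site AGAACA was found in Gsta4 and Gstm1, and in 20.7% of all windows. The full palindromic glucocorticoid response element, searched without mismatches, was in none of the 7 and in 5 windows in all. TATAAA was found in the Gstm1 window alone of the 7, beginning 29 bases before its start, and in 14.2% of all, and TGACTCA in 4.63% of all. The Mgst1 window, like those of Gstm2 and Gstk1, held no match to any of these motifs. Mgst1 was also higher with the inhibitor added, at 0.42. The matches describe letters in a short window and do not show binding.

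Gstm1 and Gstm2, mu-class enzymes that conjugate a broad range of electrophiles, differed from each other. Gstm2 had processed signals of 111.6, 158.6 and 154.2 in control, HSD1 and HSD1+BVT, and levels of -3.56, -2.88 and -3.33 on the log2 scale. It was highest with the vector alone, 1.61-fold above control at a ratio of 0.68 (technical SD 0.096), and 1.36-fold lower again with the inhibitor, at -0.45 (technical SD 0.10). Both ratios had the opposite sign to those of Gsta2 and were under 2-fold, and between HSD1+BVT and control Gstm2 lay above 0, at 0.24, as Gsta2 did. Under normexp the ratio was 0.40 with the vector and 0.07 between HSD1+BVT and control. Gstm1 was a dim probe, at 58.9, 63.3 and 87.0, or -4.49, -4.21 and -4.15 on the log2 scale. Its ratio to control was 0.28 with the vector (technical SD 0.14) and 0.33 with vector and inhibitor (technical SD 0.15), but these were 0.15 and 0.13 after quantile normalization, 0.14 and 0.16 after cyclic loess, and 0.09 and 0.07 under normexp. The ratio of 0.05 between HSD1+BVT and HSD1 turned sign in 3 of 7 alternative settings. The 2 genes are neighbours on chromosome 2, beside Gstm3 and Gstm4. With the vector all 6 measured mu-class genes, Gstm1 to Gstm6, had ratios above 0, from 0.03 for Gstm4 to 0.68 for Gstm2. Of all genes 59.2% lay above 0 in that comparison. Gstm4 lay just below 0 under quantile normalization, cyclic loess, normexp and the authors' values. The median of the 6 was 0.34, or 0.21 after quantile normalization, 0.22 after cyclic loess and 0.12 under normexp.

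Gstp1, the pi-class enzyme that also binds the stress kinase JNK, was higher in HSD1+BVT than on the other 2 arrays. Its processed signals were 2124, 1734 and 3267 in control, HSD1 and HSD1+BVT, or 0.69, 0.57 and 1.08 on the log2 scale. The control and HSD1 values differed by -0.12 (technical SD 0.060). With the inhibitor the gene was 1.42-fold above the vector alone, at 0.51 (technical SD 0.059), and 1.31-fold above control, at 0.39 (technical SD 0.056). Of all genes compared between HSD1+BVT and HSD1, 93.1% had a lower ratio than Gstp1.

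Gstt1, Gstt2 and Gstk1 stayed under 2-fold in all 3 comparisons. Gstt2, a theta-class enzyme, had processed signals of 2480, 2553 and 3385 in control, HSD1 and HSD1+BVT, or 0.91, 1.13 and 1.13 on the log2 scale. It lay 1.16-fold above control on both other arrays, at a ratio of 0.22, or 0.15 and 0.12 under normexp, and its ratio between them, 0.0015, turned sign in 5 of 7 alternatives. Gstt1, the theta-class enzyme that acts on small halogenated compounds, was the dimmest of the probes, at 37.6, 26.3 and 35.7, or -5.13, -5.47 and -5.44. Its ratio to control was -0.34 with the vector (technical SD 0.26) and -0.31 with vector and inhibitor (technical SD 0.25), each less than 2 technical SD from 0. These ratios depended on the scaling: they were -0.54 and -0.52 after quantile normalization, -0.59 and -0.50 after cyclic loess, and -0.53 and -0.50 in the authors' values. Gstk1, the kappa-class enzyme of mitochondria and peroxisomes, gave 246.3, 254.4 and 322.0, or -2.42, -2.20 and -2.27. Its ratio to control was 0.22 with the vector (technical SD 0.077) and 0.16 with vector and inhibitor (technical SD 0.072), and under normexp these were 0.08 and -0.02.

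Mgst1 and Mgst2, the membrane-bound enzymes, lay above control on both other arrays, Mgst1 farthest in HSD1+BVT and Mgst2 farthest in HSD1. Mgst1, which protects the membranes of the endoplasmic reticulum and mitochondria from lipid peroxides, gave processed signals of 466.1, 450.9 and 799.7 in control, HSD1 and HSD1+BVT, or -1.50, -1.37 and -0.95. Its level in HSD1+BVT was 1.34-fold that in HSD1, at 0.42 (technical SD 0.066), and 1.46-fold above control, at 0.55 (technical SD 0.065), with a ratio of 0.13 for the vector alone. Mgst2, which can also form leukotriene C4, gave 779.8, 912.0 and 1118, or -0.76, -0.36 and -0.47. Relative to control its ratio was 0.40, or 1.32-fold, in HSD1 (technical SD 0.064) and 0.29, or 1.22-fold, in HSD1+BVT (technical SD 0.058), the latter 0.18 under normexp. Gsta2, Gstp1 and Mgst1 were thus the members with ratios over 0.40 when the inhibitor was added, and Gstm2, Gstk1 and Mgst2 stood highest with the vector alone. Between HSD1+BVT and HSD1 the ratio was only -0.07 for Gstk1 (technical SD 0.076) and -0.11 for Mgst2 (technical SD 0.062). Both are less than 2 technical SD from 0.

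**Figure D2:**
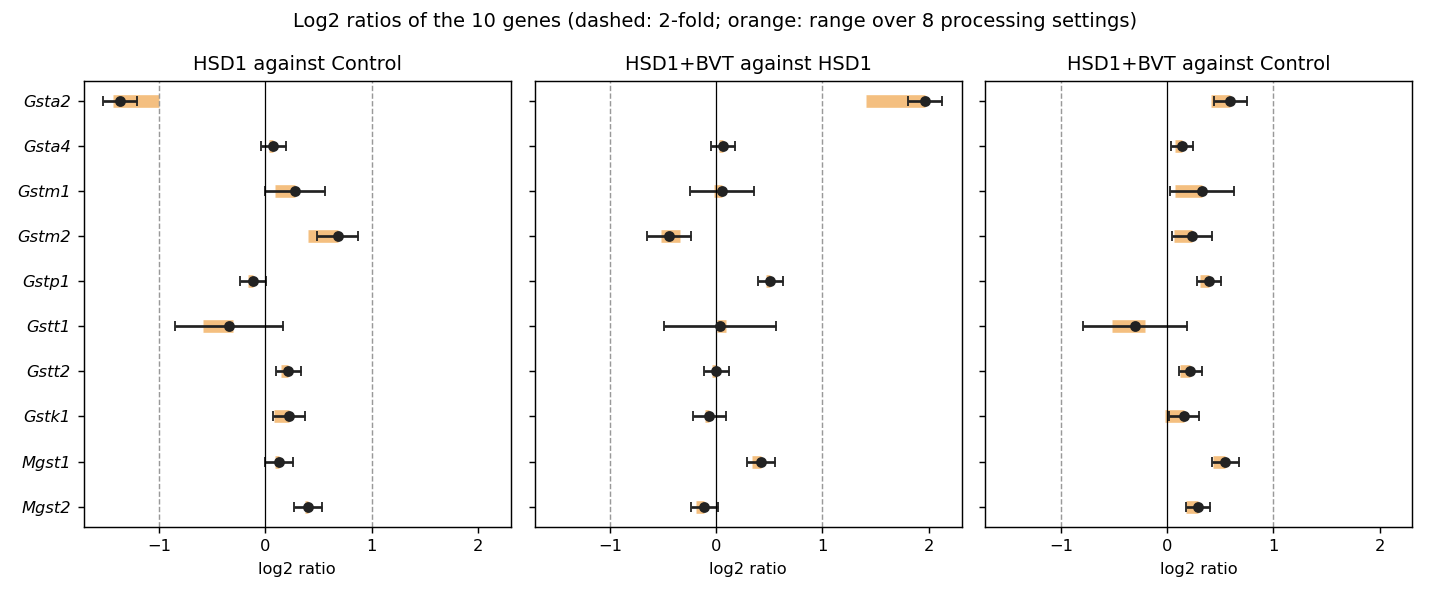
Log2 ratios of the 10 genes in the 3 comparisons, with points for the values reported, bars of 2 technical SD each way, and an orange band from the lowest to the highest value over 8 processing settings; dashed lines mark 2-fold. Gsta2 lies beyond 2-fold below 0 in HSD1 against control and above 0 in HSD1+BVT against HSD1, and no other gene reaches either line.

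Calls among the 10 genes are set here beside the share over all genes. With 10 genes, a single call is already 10%. With the vector, 1 of 10 was lower and none was higher, where 1.89% of 11882 genes were called, 1.34% higher and 0.547% lower. With the inhibitor added to the vector, 1 of 10 was higher and none lower, where 2.11% of 11709 genes were called, 1.53% higher and 0.581% lower. Between HSD1+BVT and control none of 10 was called, where 3.69% of 11724 genes were, 2.94% higher and 0.751% lower. Gsta2 was the call in both cases. These comparisons share arrays, so their values are set side by side and not related to each other.

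Below the 2-fold threshold, the members lay mostly a little above control. The median ratio was 0.17 with the vector, where 7 of 10 lay above 0 and the median of all genes was 0.06 with 59.2% above 0. Between HSD1+BVT and control the median was 0.26 and 9 of 10 lay above 0, Gstt1 being the exception. The median of all genes was 0.05 there, with 58.2% above 0. Under normexp 8 of 10 members lay above 0, with Gstk1 also below. That median of 0.26 was 0.15 after quantile normalization, 0.17 after cyclic loess and 0.10 after normexp. Between HSD1+BVT and HSD1 the median was 0.04 beside 0.01 for all genes, of which 51.2% lay above 0. Of the members 7 of 10 lay above 0, and 5 of 10 after quantile normalization, after normexp and in the authors' values. Without Gsta2 the members' medians were 0.22, 0.03 and 0.24 in the order of these comparisons: vector against control, inhibitor added, and both against control. In units of the technical SD, 5 of 10 members differed by more than 2 SD with the vector, 4 with the inhibitor added and 9 between HSD1+BVT and control, which describes the reading of the spots only. The same count was not made over all genes, so it does not set the members apart. Software errors, such as 25.1 on the Gsta2 signal of 249.9 in control, are wider than this SD and were not used for the count.

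**Figure D3:**
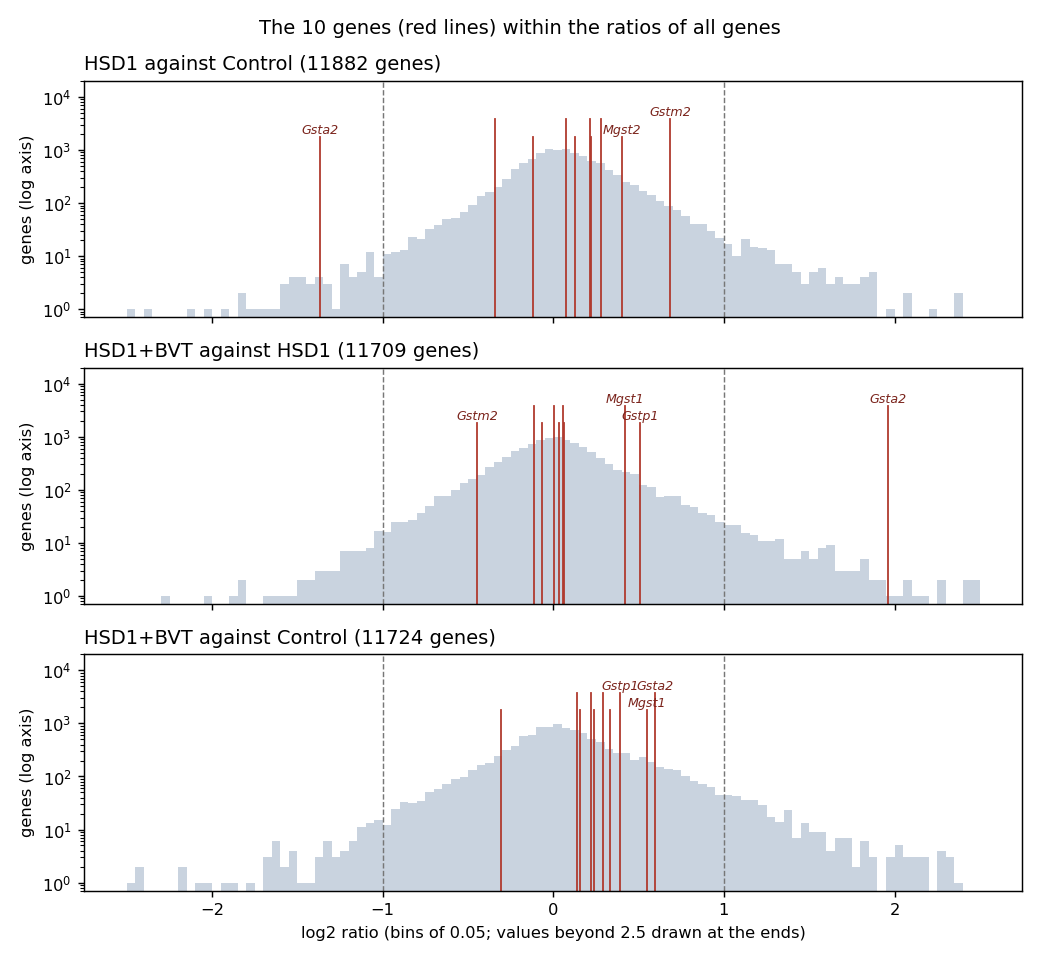
Histograms of the log2 ratios of all genes well above background on both arrays, in bins of 0.05 with the number of genes on a log axis, with the 10 genes as red lines and names for those beyond 0.35. Most of the lines stand inside the bulk of all genes, while Gsta2 stands in the tails of the upper 2 panels at -1.37 and 1.96.

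Other enzymes of the family and of the MAPEG group were 2-fold away in few cases. Over all genes, 1.34% were higher with the vector, 1.53% with the inhibitor added and 2.94% between HSD1+BVT and control. The counts of this list and of those below stand beside these shares. Of 20 measured with the vector, 1 was higher, Hpgds, the glutathione-dependent synthase of prostaglandin D2, at -5.30 in control, -4.14 in HSD1 and -4.56 in HSD1+BVT. Its ratio of 1.16 with the vector was 0.39 under normexp and at 2-fold or more in 5 of 8 settings. Between HSD1+BVT and HSD1 none of 20 was called, the highest being Gsta5 at 0.80 and the lowest Alox5ap, the partner protein of 5-lipoxygenase in leukotriene synthesis, at -0.89. Between HSD1+BVT and control Gsto2, an omega-class enzyme, was the 1 higher gene of 20, at 1.07, and it was at 2-fold or more in 4 of 8 settings and at 0.28 under normexp. Hpgds and Alox5ap are also expressed in leucocytes, so macrophage markers were read beside them. Of 7, 6 were well above background on every array and C1qa was not on any. With the vector 1 of the 6 was called, Mrc1 at 1.57, while the others lay between -0.52 for Ptprc and 0.28 for Adgre1 and the median was 0.12. With the inhibitor added none was called and the median was 0.26. Their summed level was 1.41, 1.51 and 1.68 in control, HSD1 and HSD1+BVT, and their part in these values was not tested. Of 7 endothelial markers, Pecam1, Cdh5, Kdr and Tek were measured on all arrays, with Emcn and Tie1 not well above background on any, and their summed level, most of it Kdr, was 5.21, 8.04 and 9.62. All 4 measured lay above 0 with the vector, with a median of 0.71. With the inhibitor added the median was -0.13, with Tek lower, at -1.05, Pecam1 at -0.30, Cdh5 at 0.04 and Kdr at 0.30.

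Few genes that make, use or recycle glutathione, the substrate of these enzymes, were 2-fold or more apart. Of 15 measured genes of synthesis, cystine supply and turnover, none was called with the vector or with the inhibitor added, and their medians were -0.0027 and 0.16. Gclc, the catalytic subunit of the rate-limiting enzyme of glutathione synthesis, stood at 0.46, 0.61 and 0.85 in control, HSD1 and HSD1+BVT. Gclm, its modifier subunit, stood at -1.97, -2.09 and -1.65. Slc7a11, the cystine importer, stood at -2.25, -2.85 and -2.29 by its brighter probe, with ratios of -0.60 and 0.56. Its other probe disagreed, at -5.34, -5.55 and -6.76, the last not well above background. Ggt6, of the gamma-glutamyltransferase family that breaks glutathione down, was well above background in HSD1+BVT alone, with a processed signal of 41.8 there. The bound on its fold was 2.27 over HSD1 and 2.95 over control, with no allowance for the technical SD and no value in the other settings. Of 14 peroxidases, reductases, glutaredoxins and related enzymes, 1 was higher with the vector. This was Glrx, a glutaredoxin that removes glutathione from proteins, whose levels were -1.11, 0.85 and 0.62 in control, HSD1 and HSD1+BVT. Its ratio to control was 3.88-fold in HSD1 and 3.33-fold in HSD1+BVT, and both were at 2-fold or more in all 8 settings. Of 9 genes of conjugate export and mercapturate formation, Abcc2, an exporter of glutathione conjugates, was the 1 called, at 1.17 between HSD1+BVT and control, with 0.29 under normexp and 2-fold in 4 of 8 settings.

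The regulators and other targets of NRF2 and AHR were read in the same way. Nfe2l2, which encodes NRF2, stood at 2.38, 2.22 and 2.44 in control, HSD1 and HSD1+BVT, and Keap1, its inhibitor, at -2.20, -2.32 and -2.18. Ahr had a ratio of -0.44 with the vector, and Nr3c1, the glucocorticoid receptor, one of -0.19 by its brighter probe and -0.80 by the other. Nr1i2, which encodes the xenobiotic receptor PXR, was the 1 called gene of 15 regulators, at -4.49, -3.23 and -2.94. It was 1.26 above control with the vector and 1.55 with vector and inhibitor, and 0.63 and 0.77 under normexp. The 20 other targets had a median of 0.23 with the inhibitor added, or 0.14 after quantile normalization and 0.13 under normexp. Where 1.53% of all genes were higher in that comparison, 3 of these 20 were, and none was lower. They were Cyp1a1, an AHR-induced cytochrome P450, at 1.70, Hmox1, heme oxygenase, at 1.22 and Nqo1, a quinone reductase, at 1.14, or 1.00 under normexp, just under 2-fold. None of these 3 was below its control level by 2-fold with the vector, where Gsta2 was: their ratios were 0.30, -0.13 and 0.05. With the vector 2 of 20 were higher, Aldh3a1, an aldehyde dehydrogenase, at 1.60 and Slc48a1, a heme transporter, at 1.24, and between HSD1+BVT and control 4 of 20 were: Cyp1a1, 4.0-fold above control, and Aldh3a1, Nqo1 and Hmox1, at 2.29, 1.19 and 1.09. Of the last, Hmox1 was at 0.95 and Nqo1 at 0.97 under normexp.

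**Figure D4:**
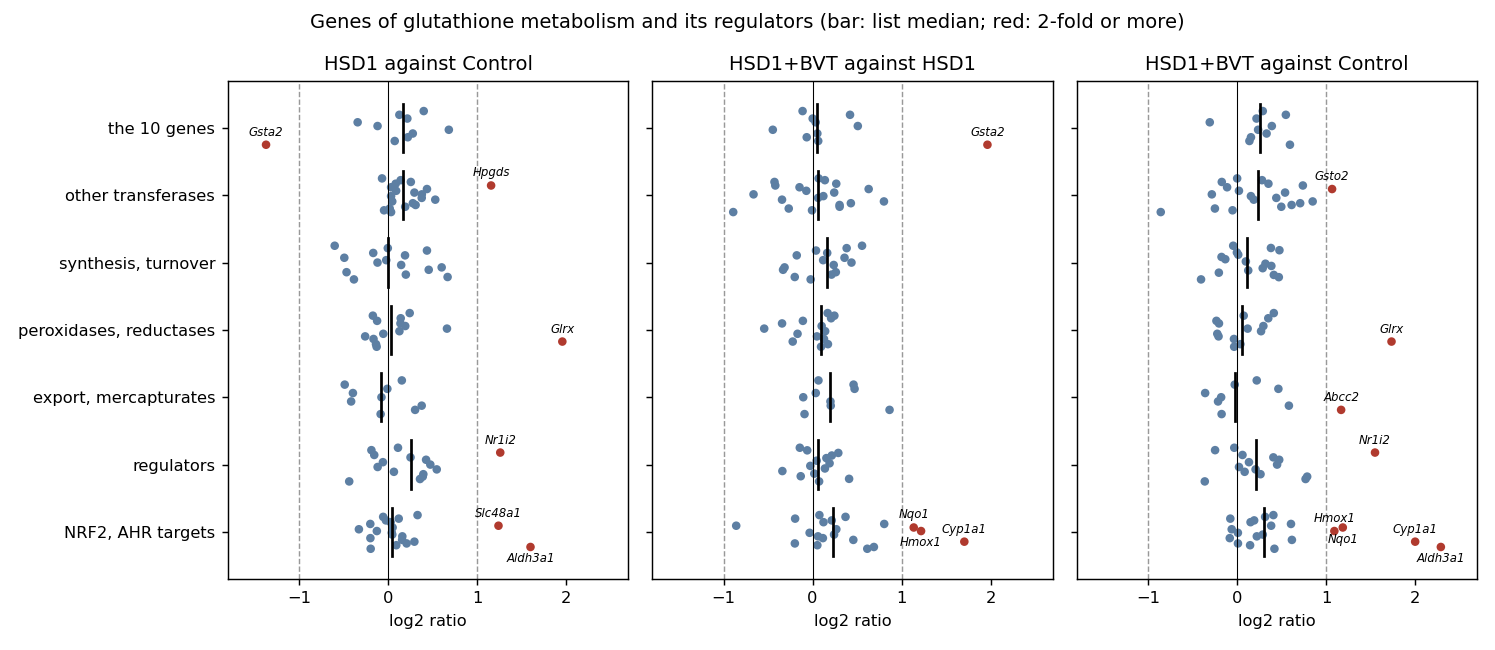
Log2 ratios of the 10 genes and of 6 lists of genes around them, 1 point a gene well above background on both arrays, with a bar at each list's median and red points at 2-fold or more. In the row of the 10 genes only Gsta2 is red, and in HSD1+BVT against HSD1 the other red points are Nqo1, Hmox1 and Cyp1a1.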

How the data were processed

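RNA of 1 pool of cells per group was labelled with Cy3 and read on 1 array each, per the labels' protocols. Per the file headers, spots were extracted with Agilent Feature Extraction 11.0.1.1. The deposited intensity values are linear: the processed signal is background-subtracted, and the spot and local background medians are raw. The other columns used, per the file headers, are flags of each spot. A further deposited table holds the authors' log2 values, whose 3 columns have equal quartiles, as quantile normalization would give. Neither its software nor doses, times and pool sizes are given in the sources used.

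Log2 processed signals were shifted by each array's percentile 75 (1320, 1169 and 1549 in control, HSD1 and HSD1+BVT). Control spots and 311, 409 and 363 outlier spots were left out, and spots of a probe averaged. Accessions were matched to RefSeq (GRCr8), and 12362 probes had no match. A gene with several probes was read by the one of highest mean signal. Fold bounds use the lowest signal well above background and make no allowance for the error of a spot. Alternatives used limma 3.58.1 in R 4.3.3: quantile normalization, cyclic loess, and normexp (offset 50). The script that counts calls was tested on simulated data, which bears on the script and not on how the calls would replicate. The number of arrays limits precision.

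The 10 genes, the lists and the naming rule were chosen with earlier results of these data known. The rule named all members, called genes of each list or its most extreme gene, 8 regulators and targets, and the 5 genes nearest to Gsta2; not every gene it picks is printed. The alpha, mu and MAPEG groupings were set after the values were seen.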

Additional observations from a re-analysis of the deposited data

How the results depend on the processing

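No paired analysis was possible because each group had 1 array, and for the same reason no replicate could be left out. The calls of Gsta2 held in all 7 alternatives, and 27 of 30 ratios of the members kept their sign. The exceptions were Gstm1 and Gstt2 between HSD1+BVT and HSD1 and Gstk1 between HSD1+BVT and control. Averaging over all probes of a gene and dropping the filter on dim probes were among the alternatives. Neither could move a member's ratio, since each member has 1 probe, well above background on all 3 arrays. The normexp setting was changed after seeing the data: the files hold no mean spot signal, so the median was used, and 4 HSD1 spots with a local background over 10 times the array's median were set aside. It gave members' medians of 0.086 with the vector and 0.10 between HSD1+BVT and control, and called 3 genes of the wider pathway in each of these, against 5 and 8. The median between HSD1+BVT and control, 0.26 as reported, was 0.15 after quantile normalization, 0.17 after cyclic loess and 0.15 in the authors' values. Without the filter on dim probes, 6 genes of the wider pathway were called between HSD1+BVT and HSD1 against 3. The cause of these shifts was not tested. Gstt1 and Gstm1 were dim, and their technical SDs of 0.14 to 0.26 limit what their ratios can show.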

Other observations

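Spots of the 10 genes were read once per array. None of these spots was marked as an outlier on any of the 3 arrays, and the local background of 1, that of Mgst2 in HSD1+BVT, was. The HSD1 array held local background values of up to 337615, at 4 spots whose background was over 10 times the array's median, while the largest values on the control and HSD1+BVT arrays were 32 and 37.

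Gstt4, the theta-class neighbour of Gstt1 and Gstt2, was well above background in HSD1 alone, by a dim probe with a processed signal of 17.9 there. The bound on its fold was 1.67 over control and 1.60 over HSD1+BVT. These bounds make no allowance for the technical SD and were not computed in the other settings. Rgs5, a pericyte marker, was at -4.58, -4.88 and -5.98 in control, HSD1 and HSD1+BVT, with a log2 ratio of -1.40 between HSD1+BVT and control. It was the lowest of 7 smooth muscle and pericyte markers and the 1 called there, where 0.751% of all genes were lower. Their median in that comparison was -0.23, and Cspg4 alone lay above 0, at 0.49. Between HSD1+BVT and HSD1 Rgs5 was again the 1 called, at -1.11, where 0.581% of all genes were lower. The median of the 7 was -0.49 there, with Cspg4 alone above 0, at 0.12.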
